A study of Mus musculus with 4 samples.

Results

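The genes described here are the epidermal growth factor (EGF) receptor family and its ligands: the receptors Egfr, Erbb2, Erbb3 and Erbb4 and the ligands Areg, Ereg, Hbegf, Tgfa, Btc and Nrg1. They were taken by gene name from the non-control probes of the arrays, which gave 10 genes with 13 probes, of 24213 named genes and 39429 probes in all. The 4 arrays each carried 2 ureter RNAs, both from E18.5 embryos of the NMRI mouse strain, shortly before birth. One RNA came from a conditional mutant, called cKO here, which carried Pax2-cre/+ together with Trp63(dN-flox/dN-flox), so that both Trp63 alleles have loxP sites for the removal of ΔNp63, the p63 form of basal epithelial cells. The other came from a control with the genotype Trp63(dN-flox/?), which has at least 1 floxed allele and for which the labels give no cre. Floxed Trp63 is therefore common to both groups, and a cre-positive control was not analysed here. Pax2, whose regulatory sequence drives the cre, is expressed in the nephric duct and its derivatives, and the labels do not say which cells recombined or whether an RNA came from 1 embryo or several. P-values therefore measure the spread between these 4 pairs of RNAs, which may in part be technical. Arrays 1, 3 and 4 were female pairs and array 2 was a male pair, and the cKO was in the red channel on arrays 1 and 3 and in the green channel on arrays 2 and 4.

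The 4 receptors are membrane tyrosine kinases that act as pairs. Egfr binds Areg, Tgfa and, like Erbb4, also Btc, Hbegf and Ereg, while Erbb3 and Erbb4 bind neuregulins such as Nrg1. Erbb2 binds no known ligand and serves as the preferred partner of the others, and Erbb3 has little kinase activity of its own. The ligands are made as membrane precursors and are released by shedding proteases, and the activated receptors signal through Ras and the MAP kinases and through phosphatidylinositol 3-kinase and Akt. In the urothelium, the epithelium that lines the ureter, these receptors are known for their part in growth and repair.

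The following probes are shown because Areg, Erbb3 and Egfr are the members that fell in the cKO. The Egfr probe shown is the second one, whose own adjusted p missed the threshold. The call of the gene rests on its brightest probe, which is not shown. They are 60-base oligos as printed on the array, written 5′ to 3′ as the files list them, with positions in mm9. The Areg probe lies at chr5:91570090-91570149 on the plus strand, the Erbb3 probe at chr10:128006424-128006483 on the minus strand and the second Egfr probe at chr11:16783556-16783615 on the plus strand.
Areg: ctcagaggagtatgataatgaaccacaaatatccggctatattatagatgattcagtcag
Erbb3: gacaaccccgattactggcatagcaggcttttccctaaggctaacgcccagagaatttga
Egfr: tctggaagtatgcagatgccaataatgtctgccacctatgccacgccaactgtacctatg

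Each probe was printed in 4 spots, and no spot of a member was saturated. Ratios are log2 of cKO over control after background correction and normalization within each array, and levels are log2 intensities of the single channels, scaled between arrays. A level can be compared between RNAs for 1 probe, not between probes. A gene was tested if a probe was well above background on all 4 arrays in at least 1 genotype, and 8 of the 10 members were. Array 1 stood apart at low signal: 90.0% of its green and 82.6% of its red spots counted as well above background. On arrays 2 to 4 these shares were 75.0% to 76.5% in green and 72.4% to 72.9% in red. Trp63, the targeted gene, had ratios of -2.86, -1.68, -2.03 and -2.13 on arrays 1 to 4, with a mean of -2.18 ± 0.50 (SD, n = 4; limma adjusted p = 0.00203). These are values of the brightest of its 4 probes, all of which were well above background in every RNA. The third and the fourth probe had mean ratios of -1.77 ± 0.42 and -1.44 ± 0.27. The second had ratios of -0.05, -0.05, -0.26 and -0.18 (mean -0.14 ± 0.10, limma adjusted p over all probes = 0.290), and the mean over all 4 probes gave -1.38. The probes of Trp63 thus disagreed, and which of them lie within the deleted part was not examined. All 9 markers of superficial and intermediate urothelium and all 7 of ureter smooth muscle were well above background in every RNA. So were all 8 hepatocyte and all 6 leukocyte markers, so detection of markers does not identify the tissue.

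Areg, Erbb3 and Egfr fell in the cKO ureters, Erbb3 1.43-fold, Egfr 1.28-fold and Areg 2.41-fold with the background correction used here. The Areg probe was well above background in the cKO on 2 of 4 arrays, and its fold was 2.33 to 6.39 over the alternatives that tested it. Erbb2, Btc, Tgfa, Nrg1 and Hbegf did not pass the test, and no member rose past the threshold of an adjusted p of 0.05. Thus 3 of 8 tested members were called, where 8.63% of the 18083 tested genes were called in either direction, 5.67% were called lower and 2.96% were called higher (limma). Of the 3 tested receptors 2 fell, and of the 5 tested ligands 1 did. Areg is in these counts through its control RNAs alone. Where both genotypes had to be well above background, 2 of 7 tested members were called, beside 1479 of 17620 genes. The call of Areg was kept when any array was left out, that of Erbb3 only without array 2, and that of Egfr in none of the 4 cases. Fewer cells of a type and less RNA per cell cannot be told apart in RNA of whole ureters.

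**Figure D1:**
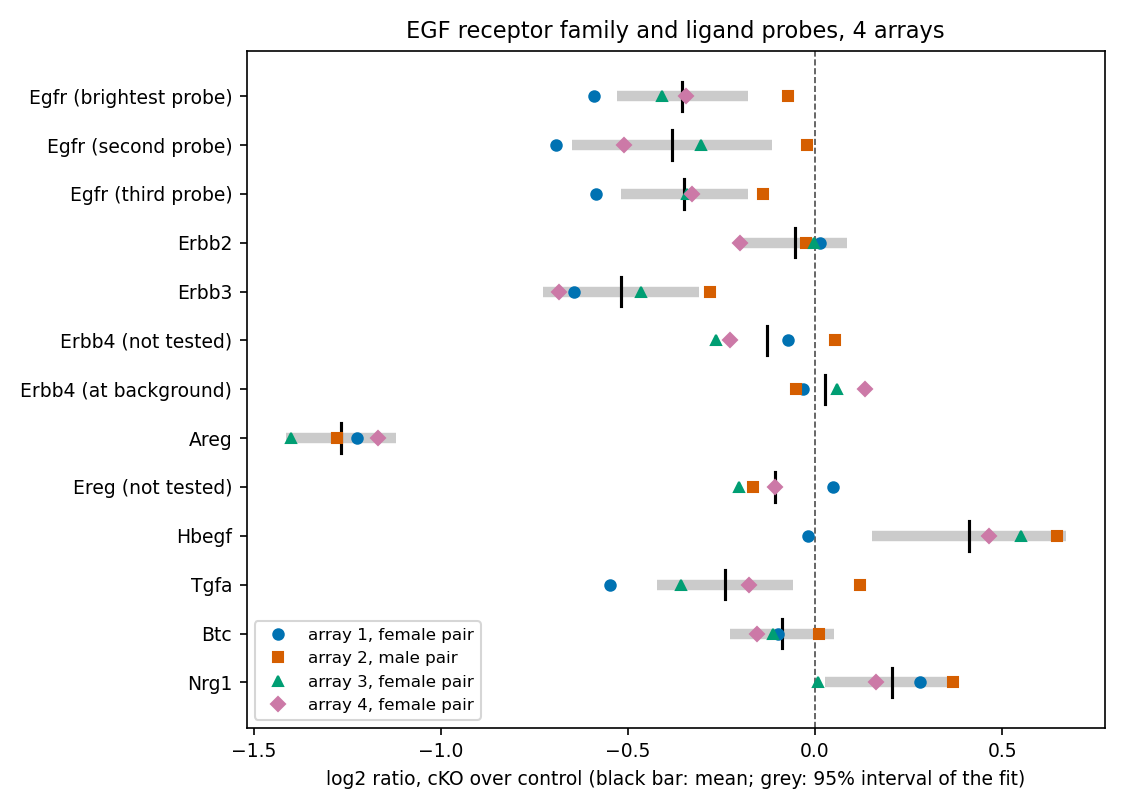
Log2 ratio of cKO over control for each of the 13 probes of the 10 members, with 1 point per array, the mean as a black bar and the 95% interval of the probe fit in grey where the probe was tested. The 4 Areg points lie between -1.40 and -1.17, the 4 Erbb3 points between -0.68 and -0.28, and the Hbegf point of array 1 lies at -0.02 while the others lie between 0.47 and 0.65.

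Among the receptors, Egfr is the founding member and the receptor of EGF itself. Its brightest probe lies at chr11:16813815-16813874 (mm9) and is annotated to transcript variant 1. Its level was 12.59, 12.94, 12.79 and 12.93 in cKO ureters and 13.18, 13.01, 13.20 and 13.27 in control ureters on arrays 1 to 4. Each cKO level lay below every control level, and the pair on array 2 was the closest. The share of all tested genes whose levels separate by genotype was not counted, here or for the members below. The ratios were -0.59, -0.07, -0.41 and -0.35, with a mean of -0.35 ± 0.21 (SD, n = 4), an interval of -0.53 to -0.18 and an adjusted p of 0.0443 (limma). The adjusted p was 0.181, 0.0534, 0.0922 and 0.159 when array 1, 2, 3 or 4 was left out.

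The other 2 Egfr probes, which the files annotate to transcript variant 2, had like ratios. The second probe had -0.69, -0.02, -0.30 and -0.51 on arrays 1 to 4 (mean -0.38 ± 0.29, limma adjusted p over all probes = 0.112). The third, at chr11:16787172-16787231, had -0.58, -0.14, -0.34 and -0.33 (mean -0.35 ± 0.18, limma adjusted p over all probes = 0.0439). All 12 values of the 3 probes were below 0, and each probe had its ratio closest to 0 on array 2. Over probes, 4 of the 10 member probes that passed the filter were called lower, where 6.98% of 28396 probes were called in either direction and 4.66% were called lower. The Areg probe is among the 4, and 3 were called where both genotypes had to be well above background.

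Erbb3, the neuregulin receptor with a weak kinase, is represented by 1 probe. Its level was 9.91, 10.38, 10.32 and 10.14 in cKO ureters and 10.56, 10.67, 10.78 and 10.82 in control ureters. The genotypes did not overlap. The ratios were -0.65, -0.28, -0.46 and -0.68, with a mean of -0.52 ± 0.18 (SD, n = 4), an interval of -0.73 to -0.31 and an adjusted p of 0.0245 (limma). Without array 1, 3 or 4 the adjusted p was 0.107, 0.0649 and 0.0650, and the ratio ranged from -0.62 to -0.42 over the 4 cases.

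Erbb2, the receptor with no ligand of its own, had almost the same level in both RNAs of arrays 1 to 3. Its level was 11.75, 12.33, 12.31 and 12.15 in cKO ureters and 11.73, 12.35, 12.32 and 12.35 in control ureters. On array 1 both RNAs lay about equally below those of the other arrays. The ratios were 0.01, -0.03, 0.00 and -0.20 (mean -0.05 ± 0.10, adjusted p = 0.647, limma), with an interval of -0.20 to 0.09.

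Erbb4, a second neuregulin receptor, has 2 probes, and neither passed the filter. One of them was well above background in none of the 8 RNAs. The other, at chr1:68078805-68078864, was above background in the cKO on 1 array and in the control on 2 arrays, with ratios of -0.07, 0.05, -0.26 and -0.23. Its cKO level was 7.16 on array 1 against 6.36 to 6.38 on the other arrays, and its control level was 7.23 on array 1 against 6.33 to 6.62. The signal of this probe was thus highest on the array where dim probes were most often above background.

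Among the ligands, Areg, which encodes amphiregulin, a ligand of Egfr made by many epithelia, was lower in the cKO RNA of every array. Its level was 6.25, 6.58, 6.83 and 6.59 in cKO ureters and 7.47, 7.86, 8.23 and 7.76 in control ureters. The highest cKO level lay below the lowest control level. The ratios were -1.22, -1.28, -1.40 and -1.17, with a mean of -1.27 ± 0.10 (SD, n = 4), an interval of -1.42 to -1.12 and an adjusted p of 0.000614 (limma).

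The size of the Areg difference depends on how the background is treated, and the cKO signal lay close to it. The median signal of the 4 spots was 107, 50.6, 118 and 49.4 units in cKO ureters over backgrounds of 82.5, 34.5, 79.5 and 30.5, and 171, 244, 243 and 221 units in control ureters over backgrounds of 32, 85.8, 33 and 77.5. In the cKO 1, 4, 4 and 1 of the 4 spots were well above background on arrays 1 to 4, and in the control all were. Areg thus passed the filter through the control RNAs, and it had no test where both genotypes had to be well above background. With Agilent's processed signals the mean ratio was -2.68, a 6.39-fold difference, and with an offset of 10 in place of 50 in the background correction it was -1.78. The deposited value table gives -1.82, -1.48, -1.88 and -1.20 for Areg (mean -1.59 ± 0.32). Areg was past the threshold in each of these, with adjusted p-values between 5.40e-05 and 0.0137 over all alternatives in which it was tested.

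**Figure D2:**
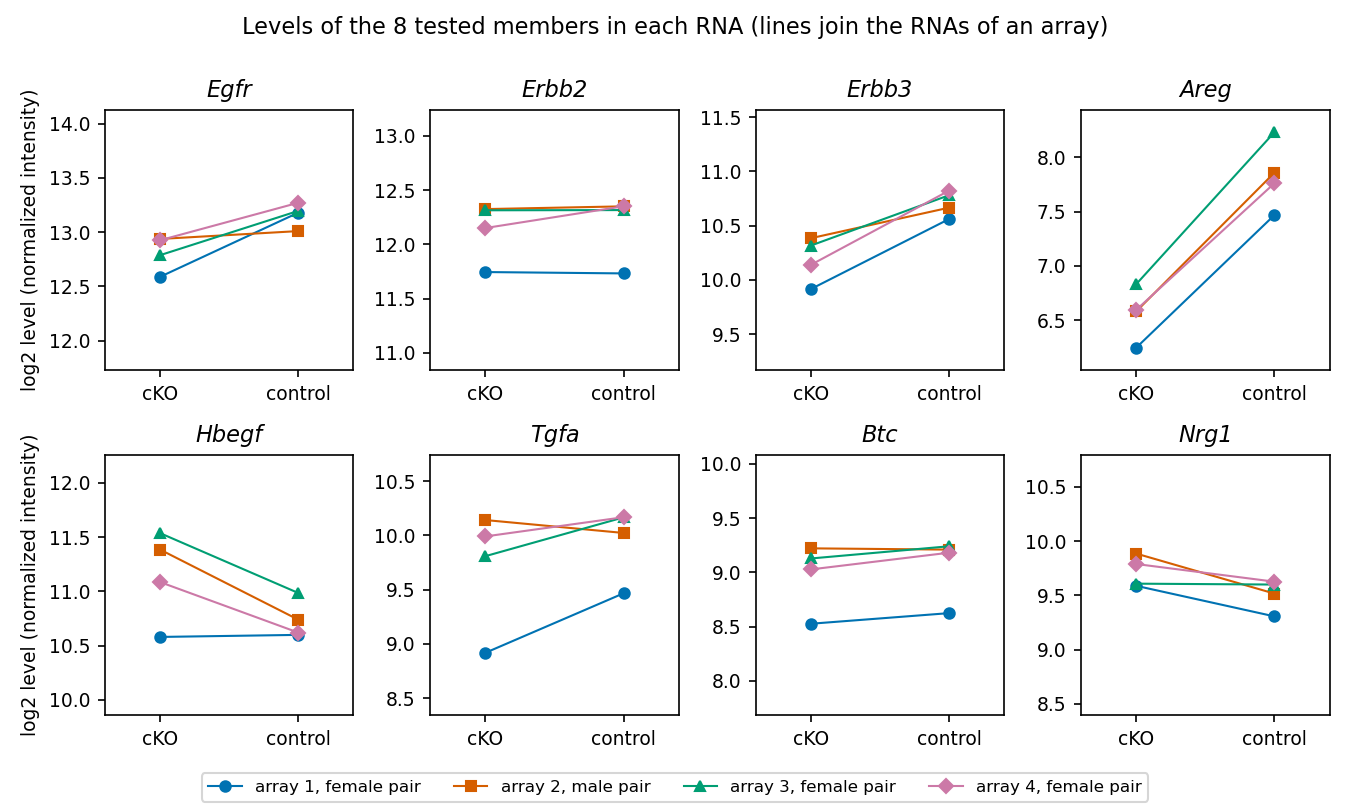
Log2 level of the 8 tested members in each RNA, with cKO left of control, a line joining the 2 RNAs of an array, and each panel spanning the same range of the log2 scale. The cKO levels of Areg, Erbb3 and Egfr lie below all control levels, while those of Erbb2 and Btc overlap the control levels and are lowest on array 1 in both genotypes. The share of all tested genes that separate by genotype was not counted.

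Hbegf, the heparin-binding ligand of Egfr and Erbb4, differed in the other direction on 3 of 4 arrays. Its level was 10.58, 11.38, 11.54 and 11.09 in cKO ureters and 10.60, 10.74, 10.99 and 10.62 in control ureters. The genotypes overlapped, since the cKO RNA of array 1 lay at the level of the controls. The ratios were -0.02, 0.65, 0.55 and 0.47, with a mean of 0.41 ± 0.30, an interval of 0.15 to 0.67 and an adjusted p of 0.0821 (limma). Without array 1 the ratio was 0.55 with an adjusted p of 0.0336, and it was 0.27 with an adjusted p of 0.157 without array 3.

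Tgfa, a ligand of Egfr alone, had a level of 8.92, 10.14, 9.81 and 9.99 in cKO ureters and 9.47, 10.02, 10.17 and 10.17 in control ureters. The ratios of -0.55, 0.12, -0.36 and -0.18 had a mean of -0.24 ± 0.28 and an adjusted p of 0.126 (limma). The 2 arrays with the cKO in red gave the larger negative values, and the dye coefficient was -0.21 with an adjusted p of 0.833.

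Btc, betacellulin, a ligand of Egfr and Erbb4, had a level of 8.53, 9.22, 9.13 and 9.03 in cKO ureters and 8.62, 9.21, 9.24 and 9.18 in control ureters. Its ratio was -0.09 ± 0.07, with an interval of -0.23 to 0.05 and an adjusted p of 0.421. Nrg1, the neuregulin ligand of Erbb3 and Erbb4, had a level of 9.59, 9.89, 9.61 and 9.79 in cKO ureters and 9.31, 9.52, 9.60 and 9.63 in control ureters. Its ratio was above 0 on all 4 arrays, at 0.28, 0.37, 0.01 and 0.16 (mean 0.21 ± 0.16, interval 0.02 to 0.39, adjusted p = 0.169).

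Ereg, epiregulin, a further ligand of Egfr and Erbb4, was not tested. Its probe was well above background on array 1 in both genotypes and in no other RNA, with a level of 6.60 in the cKO and 6.55 in the control on that array. On arrays 2 to 4 its level was 6.13 to 6.23 in cKO ureters and 6.26 to 6.44 in control ureters. A difference of Ereg could not be measured at these signals.

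The male pair gave the highest ratio of Egfr, Erbb3, Tgfa, Hbegf, Btc and Nrg1, but not of Erbb2 and Areg. Tgfa was at 0.12 in that pair. In a model with a term for the male pair, the male ratio minus the female ratio was 0.40 for Erbb3 (interval -0.07 to 0.88), 0.27 for Egfr (-0.20 to 0.75) and 0.30 for Tgfa (-0.18 to 0.77). No member passed (adjusted p of 0.970 to 0.984 for all 8 members). Of all tested genes 0% were called in this comparison (limma), while 855 had an unadjusted p under 0.05, and no gene was called with Agilent's processed signals or with no filter on dim probes. With 1 male pair this term rests on 1 array.

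Markers of epithelial cells also differed, and their values stand here beside the receptors. All 8 basal markers fell, with a median ratio of -2.22, and Krt5, the keratin of basal cells, fell 7.26-fold. Trp63, the targeted gene, is 1 of these 8 and stands there through its brightest probe. Of 9 general epithelial markers 4 fell, none rose and 5 did not pass, with a median of -0.53 and array medians of -0.86, -0.20, -0.28 and -0.64. Their ratios ranged from -1.23 to 0.28. Of 9 markers of superficial and intermediate urothelium 1 fell and 8 did not pass, with a median of -0.45 and array medians of -0.96, -0.05, -0.20 and -0.54. Epcam and Cdh1, which encode epithelial adhesion proteins, are among the 4 general epithelial markers that fell. They had ratios of -0.73 ± 0.31 and -0.59 ± 0.18 (limma adjusted p = 0.0213 and 0.0177). The call of Epcam ended without array 2 (0.0501) or array 4 (0.0876), and that of Cdh1 without array 1 (0.0822) or array 3 (0.0593), as adjusted p-values. The general epithelial list had its median closest to 0 on array 2, the array on which Egfr and Erbb3 had their ratios closest to 0. The medians of the 7 smooth muscle, 8 mesenchyme and 6 endothelial markers were 0.14, 0.11 and 0.19, with no member past the threshold. Acta2, a smooth muscle marker, had a ratio of 0.14 ± 0.14 (limma adjusted p = 0.214). Of 8 hepatocyte markers 4 rose, with a median of 1.61 and array medians of 2.13, 2.49, 1.31 and 0.47. Of 6 adrenal cortex markers 2 rose (median 0.39), of 7 tested kidney markers 1 rose and 1 fell (median -0.05), and of 6 leukocyte markers none passed (median -0.08). Among 8 Schwann and neural markers 1 rose (median 0.11, range -0.03 to 0.65). Sox10, the marker of Schwann cells, which use Nrg1 and Erbb3, had the lowest ratio of that list, at -0.03 ± 0.16 (limma adjusted p = 0.868). The part of these cell types in the ratios of the receptors and ligands was not tested.

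The arrays were then examined for other genes of the pathway, in 6 lists of 122 gene symbols. Of these, 121 matched a gene name on the arrays and 116 were tested. In these lists 12 genes fell, 2 rose and 102 did not pass, so that 12.1% were called, beside 8.63% of all tested genes. The median ratio of the 116 genes was -0.02, and that of all genes was 0.00.

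**Figure D3:**
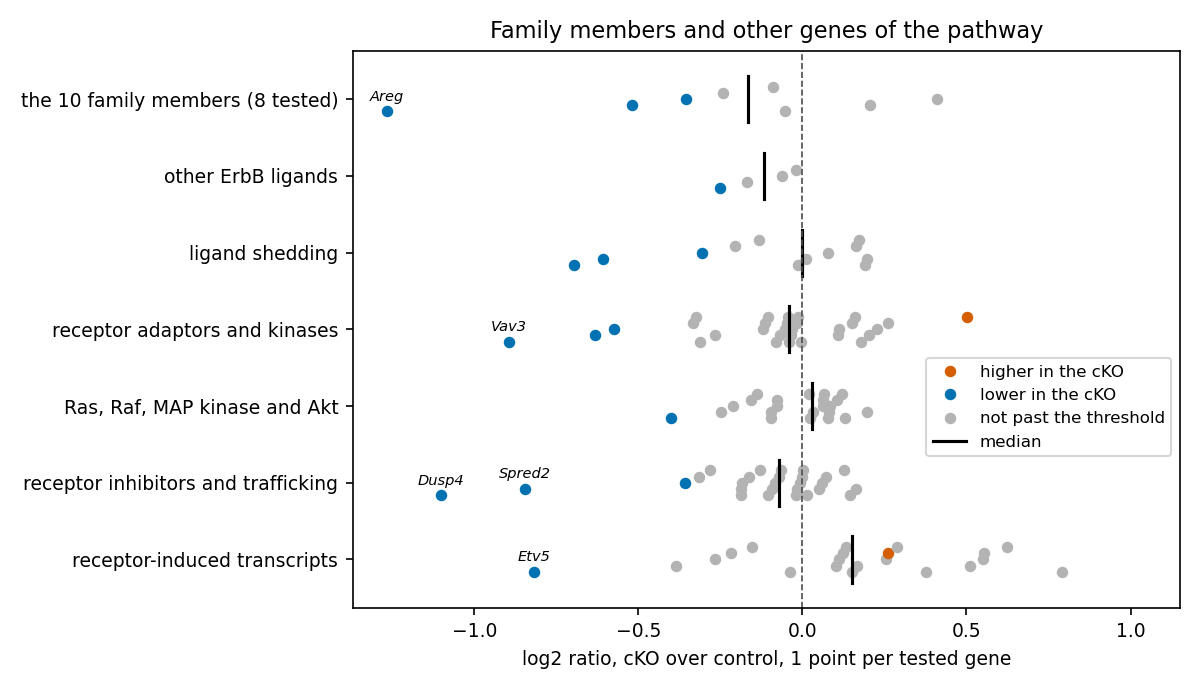
Log2 ratio of cKO over control for the tested family members and for the tested genes of 6 pathway lists, with 1 point per gene, the list median as a black bar, genes that fell in blue and genes that rose in orange. Most points of each list lie near 0, and Dusp4 at -1.10, Vav3 at -0.89, Spred2 at -0.84 and Etv5 at -0.82 lie farthest to the left among the pathway genes.

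Of the 4 other ligands tested (Egf, Epgn, Nrg2 and Nrg4), 1 fell. This was Nrg4, a neuregulin that binds Erbb4, with ratios of -0.25, -0.27, -0.27 and -0.21 and an adjusted p of 0.0447. The call ended in 8 of 16 alternatives, among them when any array was left out. With the mean of its passing probes the ratio was -0.17 (limma adjusted p = 0.114). The probe used for Nrg4 had a mean log2 signal of 7.08, the lowest among the named pathway genes. Its ratio was -0.36 with an offset of 10 and -0.53 with Agilent's processed signals.

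Of 12 genes of ligand shedding, 3 fell, 0 rose and 9 did not pass. Rhbdf2, the cofactor that matures the sheddase Adam17, fell 1.62-fold (-0.69 ± 0.08, adjusted p = 0.00304), and its ratio lay between -0.78 and -0.61 on the 4 arrays. Rhbdl2, a rhomboid protease, had a ratio of -0.61 ± 0.30 (adjusted p = 0.0216), and the adjusted p was 0.0503 when array 1 and 0.0904 when array 4 was left out. Adam10, a sheddase of Egf and Btc, had a ratio of -0.31 ± 0.14 (adjusted p = 0.0274), which did not pass without any of the arrays.

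Of 30 adaptors and kinases, 3 fell, 1 rose and 26 did not pass. Vav3, a guanine nucleotide exchange factor, fell 1.86-fold (-0.89 ± 0.05, adjusted p = 0.00114), with values from -0.96 to -0.85. Pik3r1, the regulatory subunit of phosphatidylinositol 3-kinase, fell 1.55-fold (-0.63 ± 0.14, adjusted p = 0.00466). Grb7, an adaptor that binds Erbb2, had a ratio of -0.57 ± 0.25 (adjusted p = 0.0307, 0.105 without array 1 or without array 4). Sos1, the exchange factor that activates Ras, rose 1.42-fold (0.50 ± 0.14, adjusted p = 0.00758).

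In the list of Ras, Raf, MAP kinase and Akt genes, 1 of 22 fell and 21 did not pass. Hras had a ratio of -0.40 ± 0.03 (adjusted p = 0.0113), and the adjusted p was 0.0642 when array 1 and 0.0525 when array 4 was left out.

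Among the 27 genes of receptor inhibition and trafficking, 3 fell, 0 rose and 24 did not pass. Dusp4, a phosphatase of MAP kinases, fell 2.15-fold (-1.10 ± 0.17, adjusted p = 0.000829), and Spred2, an inhibitor of Ras and Raf signalling, fell 1.80-fold (-0.84 ± 0.28, adjusted p = 0.00938). Dusp6, a phosphatase of extracellular signal-regulated kinases, had a ratio of -0.36 ± 0.15 (adjusted p = 0.0269) and did not pass without any of the arrays.

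Of 21 receptor-induced transcripts, 1 fell, 1 rose and 19 did not pass, and the list median was 0.15, with array medians of -0.09, 0.09, 0.11 and 0.37. Etv5, an ETS transcription factor induced by MAP kinase signalling, fell 1.76-fold (-0.82 ± 0.07, adjusted p = 0.00200). Plaur, the urokinase receptor, had a ratio of 0.26 ± 0.13 (adjusted p = 0.0416) and did not pass without any of the arrays. Other receptors, among them those for fibroblast growth factors, act on the same transcripts.

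For each member that fell, the 3 genes with the closest log2 ratios over the 4 arrays were taken, among 17244 genes, by the root mean square difference. Those of Areg were Adora2b (0.042), an adenosine receptor, Lama3 (0.044), a laminin chain of epithelial basement membranes, and Apobec1 (0.049), an RNA-editing enzyme. Those of Erbb3 were Rab11fip5 (0.038), an effector of Rab11, Il1r2 (0.046), the decoy receptor of interleukin-1, and Lad1 (0.065), an anchoring filament protein. Those of Egfr were Phyh (0.031), a peroxisomal hydroxylase, Rufy3 (0.042) and Tnni2 (0.046), a troponin. These are descriptions of 4 ratios per gene. The genes closest to Areg were found with the background correction used here, where its mean ratio was -1.27. That mean was -1.78 with an offset of 10 and -2.68 with Agilent's processed signals. Whether the same genes are closest to Areg under those settings was not tested. Areg also passed the filter through its control RNAs alone.

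RefSeq promoter entries (GRCm38.p6) were found for 6 of the 10 members, and the 250 bases before the annotated start were searched on both strands. The Areg promoter, at chr5:91139349-91139598 on the plus strand, is shown because Areg fell in the cKO under each alternative that tested it. Its capitals mark the cAMP response element TGACGTCA, which begins 61 bases before the start, and the TATA box letters TATAA, which begin 31 bases before it. The 2 matches do not overlap.
Areg promoter: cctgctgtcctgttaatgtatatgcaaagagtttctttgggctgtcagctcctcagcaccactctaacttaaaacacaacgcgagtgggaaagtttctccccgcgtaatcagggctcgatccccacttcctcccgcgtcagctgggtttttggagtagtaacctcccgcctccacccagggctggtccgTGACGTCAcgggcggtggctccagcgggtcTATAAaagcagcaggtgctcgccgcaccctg

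Among the 6 promoters, that of Areg alone held TGACGTCA or TATAA, which 1.55% and 22.8% of 32851 promoter windows hold. The core of a p53 family site, taken as a pair of CATG with 6 bases between them, was found in none of the 6 and in 0.490% of all windows. In a looser form, with any bases at the middle positions of each CATG, it was found in 5 of the 6, with 4 matches before Areg, and in 63.5% of all windows. The AP-1 letters TGANTCA were in none of the 6 and in 6.75% of all windows. The Egfr promoter, at chr11:16751953-16752202, held 1 match to the looser p53 family form and none to the other 4 motifs.

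**Figure D4:**
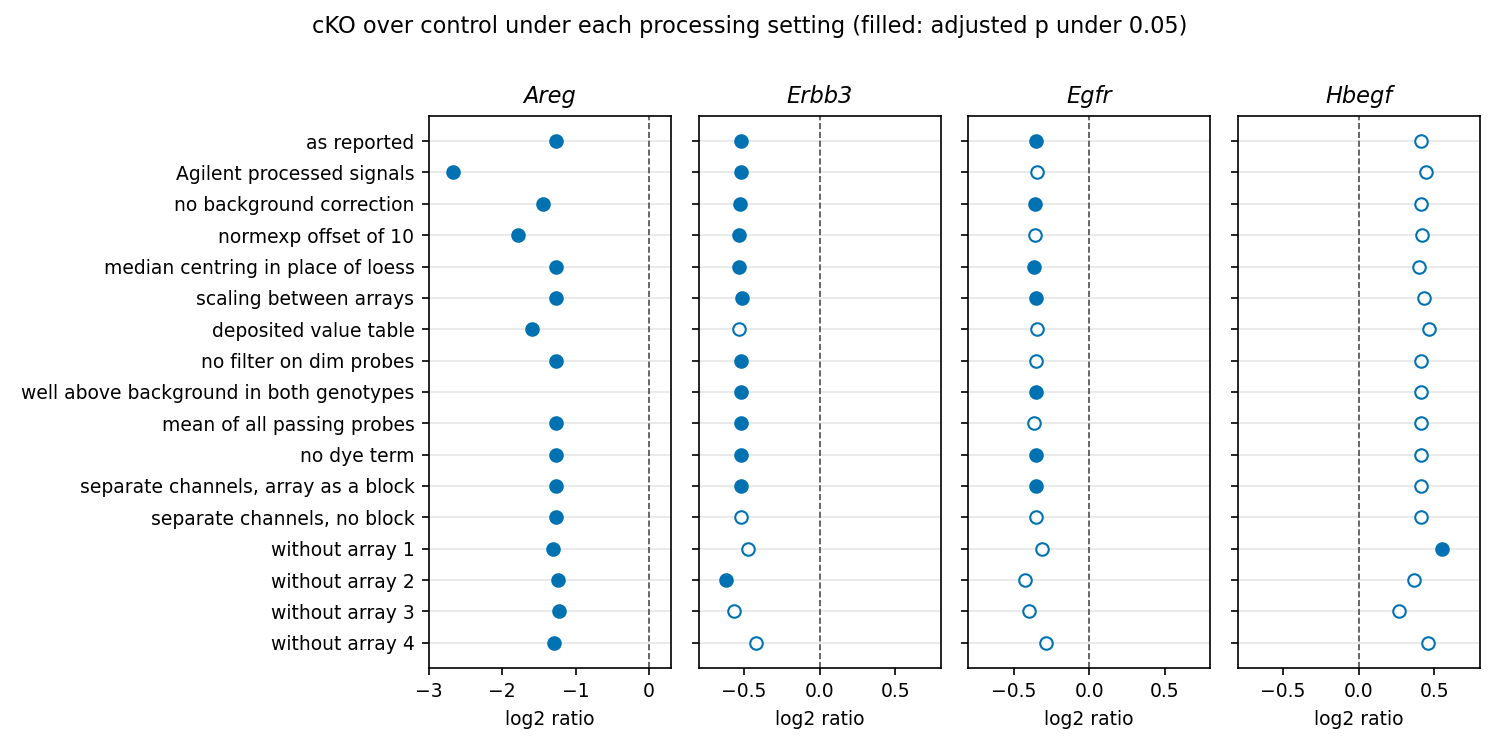
Log2 ratio of Areg, Erbb3, Egfr and Hbegf under the processing as reported and 16 alternatives, with filled points where the adjusted p was under 0.05; the Areg panel has its own horizontal scale, and Areg has no point where both genotypes had to be above background. Areg is filled in each setting and ranges from -2.68 to -1.22, Erbb3 and Egfr lie within narrow ranges on both sides of the threshold, and Hbegf is filled only without array 1.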

How the data were processed

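Two-colour Agilent arrays were read from the deposited scanner files, whose spot values are linear intensities; the software was Agilent Feature Extraction, version 10.7.3.1, according to the submitters' processing notes and per the file headers. Each file also holds a log10 ratio of red over green, made by the authors' scanner software per the file headers and not used for tests. The deposited value table holds log2 ratios made by the authors. Set against the scanner ratios of probes brighter than the median, it ran as cKO over control with slopes of 0.990 to 1.00. Over all probes its median was 0, and 7718 to 12487 of its 39429 values per array were exactly 0.

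Mean spot signals were background-corrected here with normexp (offset 50) and normalized by loess within each array with control spots at weight 0, in limma 3.58.1 and R 4.3.3. Spots flagged as outliers were left out, the 4 spots of a probe were averaged, and every ratio was turned to cKO over control. Levels of single RNAs come from the same values after Aquantile scaling, which leaves dye effects in single channels. Probes had to be well above background in most spots on all 4 arrays in at least 1 genotype. The brightest passing probe stood for a gene, named through RefSeq where the accession or symbol matched. Ratios were fitted with lmFit and eBayes with a dye term, two-sided, with Benjamini-Hochberg adjustment over 18083 genes or 28396 probes and a threshold of 0.05, and intervals are 95% limits of that fit. The fit was tested on simulated data. The number of arrays limits the precision. The files place the 4 arrays on a single slide with a single scan, so no slide or scan batch could be compared.

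The 2 RNAs of an array form a pair through the hybridisation, and the ratio carries that pairing. The alternatives were other background corrections, normalizations, filters and probe summaries, the deposited value table, no dye term, separate channels with and without the array as a block, and leaving out each array. Named genes were all members, Trp63, up to 4 genes past the threshold with the lowest p from each pathway list, the 3 closest genes for each member that fell, and 5 cell type markers. The members, gene lists and tests were chosen with earlier results of these data known. Sequences of the other member probes are not reported here.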

Additional observations from a re-analysis of the deposited data

Results flagged for a closer look

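Of 53 sets of 4 values checked for a sample far from the others, 3 stood out, where chance flags about 1 in 20. The log2 level of the first Erbb4 probe in the cKO was 7.16 on array 1 and 6.36 to 6.38 on the other arrays. The level of Erbb2 in the control was 11.73 on array 1 and 12.32 to 12.35 on the others. The level of Btc in the control was 8.62 on array 1 and 9.18 to 9.24 on the others. All 3 lie on array 1, where 90.0% of green and 82.6% of red spots were well above background.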

How the results depend on the processing

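No ratio of a member or of a named pathway gene changed sign among the alternatives run. The ratio of Sox10, which was not past the threshold, was -0.03 as reported and 0.01 with processed signals, 0.02 with the deposited table and 0.04 without array 2. Trp63 had -2.18 from its brightest probe and -1.38 from the mean of its probes. Areg kept its call in each alternative that tested it. Egfr, at -0.35 as reported, did not pass with Agilent's processed signals (-0.34, adjusted p = 0.0694), an offset of 10 (-0.35, 0.0519), the deposited value table (-0.35, 0.0917), no filter on dim probes (-0.35, 0.0527), the mean of its probes (-0.36, 0.0566) or separate channels with no block (-0.35, 0.107). Erbb3, at -0.52, did not pass with the deposited table (-0.53, 0.0806) or separate channels with no block (-0.52, 0.0834). Leaving out 1 array gave -0.42 to -0.29 for Egfr, -0.62 to -0.42 for Erbb3 and 0.27 to 0.55 for Hbegf, which passed without array 1. The count of member genes, 3 as reported, was 1 with the deposited table and with no block, and 1 to 2 without 1 array. The count of member probes, 4 as reported, was 1 with processed signals, the deposited table and no block, 2 with no filter, and 1 to 3 without 1 array. Of all genes 1561 passed, against 856 with the deposited table, 562 with no block and 859 to 1133 without 1 array. Of the pathway genes 14 passed, against 8 with the deposited table, 4 with no block, 23 with the array as a replicate block, and 7 to 13 without 1 array, the lowest without array 4. With that block, whose correlation was 0.653, the adjusted p was 0.00855 for Egfr and 0.00492 for Erbb3. The causes of these changes were not tested. Dim probes limit Areg, whose cKO signal lay near background, and Erbb4 and Ereg, which could not be tested. The ratio of Nrg4, also a dim probe, varied in size with the treatment of the background.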
